A study of Mus musculus with 6 samples.

Results

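This account concerns the genes whose title, in a table of 4-fold differences that the authors deposited, contains the word kinase, apart from the cyclin-dependent, aurora and testis-titled ones and Mylk, Pgk2 and Ak3. The rule gave 60 genes, measured by 93 probe sets, of 2291 genes and 3198 probe sets in the table. A further probe set titled as a choline kinase carries several gene symbols and was counted for no gene. By function the 60 genes fall into 2 tyrosine kinases, 5 members of the MAP kinase cascade, 10 calcium or cAMP dependent kinases and their subunits, 9 metabolic kinases, 23 other serine/threonine kinases and 11 kinase regulators and anchors. No lipid kinase came under the rule, and of fixed lists of 48 lipid kinases and 15 AKT, mTOR and related kinases none is in the table. Absence from the table does not mean a small difference. Of 7112 probe sets past 4-fold in mean signal, it holds 2964. The word kinase in a title does not make a kinase: anchors, scaffolds, inhibitors, adaptors and regulatory subunits are among the members and are named as such.

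A kinase moves phosphate from ATP to another molecule. Protein kinases pass signals on in this way: receptors at the membrane start a cascade, second messengers such as cAMP and calcium switch on their own kinases, and scaffolds and anchors hold the enzymes near their targets. In Sertoli cells, the somatic cells that nurse germ cells in the seminiferous tubule, follicle-stimulating hormone acts largely through cAMP and protein kinase A. Metabolic kinases act on small molecules and supply nucleotides or steer the use of glucose.

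The study compared aggregates of primary Sertoli cells, taken from C57BL/6 x 129 mice, with aggregates of MSC-1, a mouse Sertoli cell line that came from a testicular tumour of an animal carrying SV40 large T antigen, and asked which transcripts bear on how grafted cells survive and protect. Both kinds of cell had aggregated for 48 h in medium with 10% serum, and neither received a treatment. The sources differ on donor age: the growth protocol has 10 to 20 days, the design text 19 to 20 days. Each group has 3 samples, on 6 Affymetrix arrays in all, and nothing says that they were separate cultures or animals, so every error below measures the spread between these arrays, which may be technical.

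The values are linear array signals, 1 per probe set, scaled by the authors so that the mean of each array without its lowest and highest 2% of probe sets is 125. For each gene the listed probe set with the highest mean log2 signal over the 6 arrays was used. On the linear scale another listed probe set had the higher mean for Mapk10, Mapk8ip2, Srpk3, Dclk1 and Mastl, and the values of other probe sets are given where they differ by more than 1.5-fold. Signals are printed for samples 1, 2 and 3 in that order. Differences are primary minus MSC-1 on the log2 scale, with the standard error (SE) of a limma fit after each array was centred on its median. Centring lowers every difference by 0.26, because the array medians were higher in primary cells. The authors' signed folds matched the direction of primary over MSC-1 signals for all 3198 listed probe sets, so a positive fold there means higher in primary cells.

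Primary Sertoli cells had the higher level of 29 of the 60 genes and the MSC-1 line that of 31, and the groups did not overlap for any of them. All 60 passed an adjusted p of 0.05 in the limma fit (Benjamini-Hochberg over 45037 probe sets), with adjusted p between 4.51e-08 for Akap12 and 0.00479 for Prkcq. Over the whole array, 42.2% of probe sets passed, 15.0% with the higher level in primary cells and 27.2% with it in the MSC-1 line, and the groups did not overlap for 51.2%. Because the authors chose the genes of their table by the size of this same difference, the count of 60 is a description and nothing can be read from it. The arrays as scaled by the authors, without centring, gave 47.3% of the called probe sets on the primary side, against 35.6% with centring. The share of members on the primary side was 48.3%, beside 62.4% for the other 2231 genes of the table, a difference that was not tested. The members nearest to the selection limit were Stk36, at 4.05-fold, and Ikbkg, at -4.07-fold, in the authors' deposited table. Genes outside that table, whatever the size of their difference, are not analysed here.

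**Figure D1:**
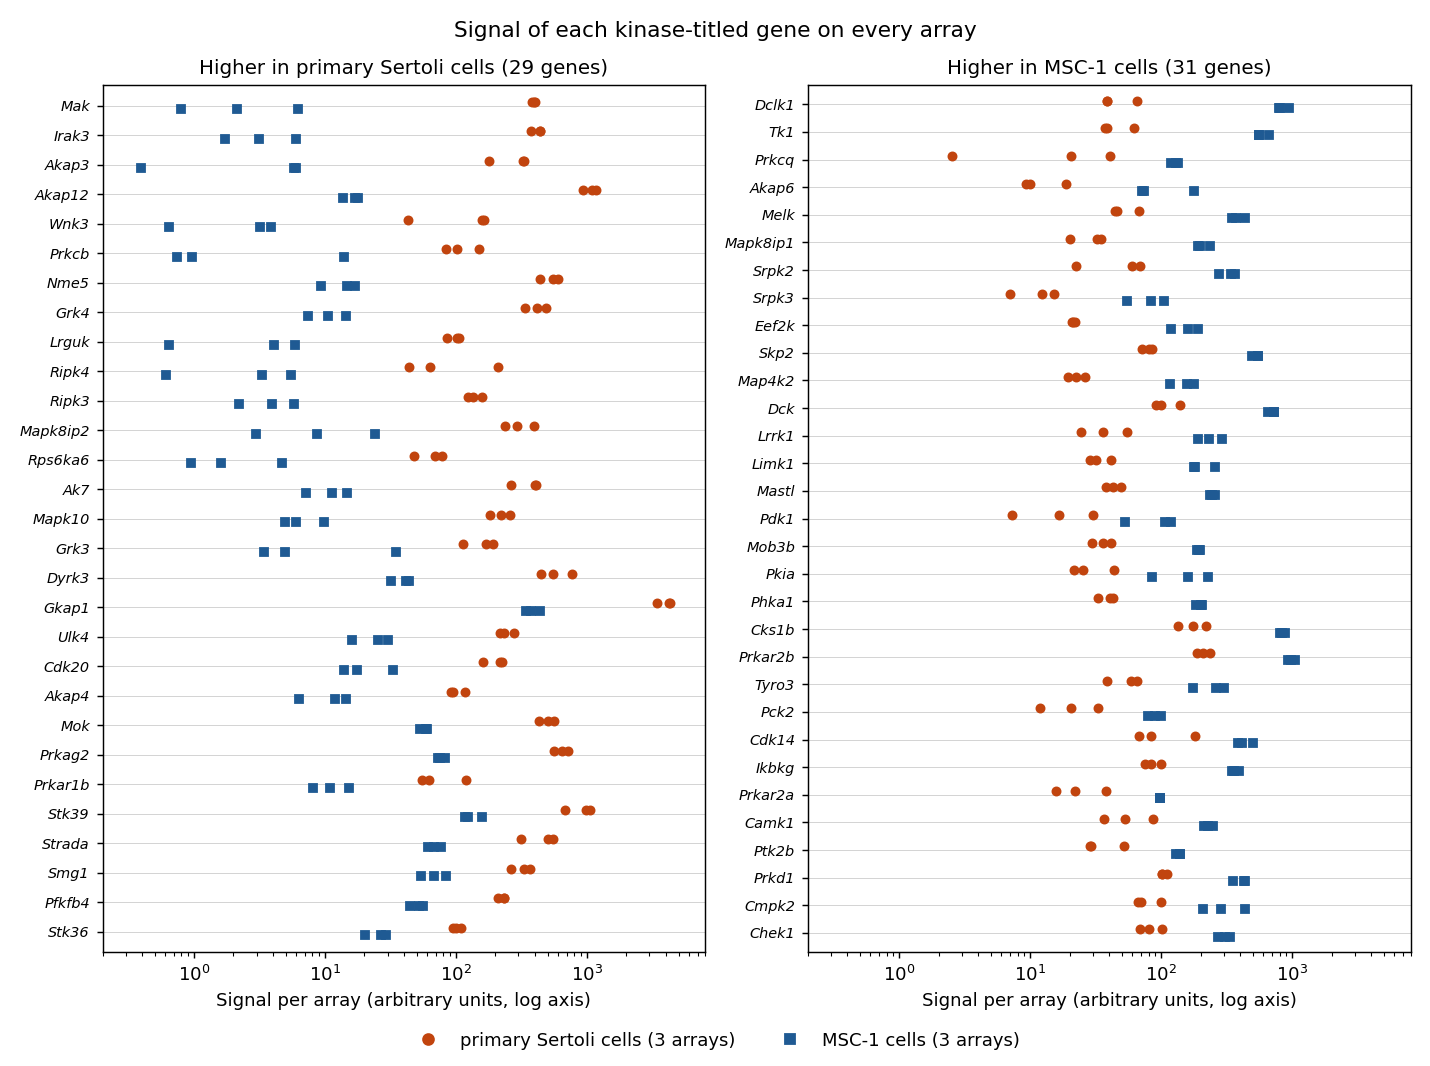
Signal on a log axis for each of the 60 genes on every array, circles for the 3 primary Sertoli cell arrays and squares for the 3 MSC-1 arrays, ordered by the size of the log2 difference. The left panel holds the 29 genes higher in primary cells, many with MSC-1 signals under 10, and the right panel the 31 genes higher in MSC-1 cells; in no row do circles and squares overlap.

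The sides differed in how dim the lower group was. For genes higher in primary cells, the median log2 difference was 4.78, and 9 of 29 had a mean MSC-1 signal under 5.44, the lower quartile of the MSC-1 arrays. For genes higher in MSC-1 cells the median was -2.77, and 0 of 31 had a mean primary signal under the lower quartile of the primary arrays, 7.43. For the other 2231 genes of the authors' table the medians by side were 4.34 and -2.77, so the unequal medians are not particular to the members. Over all 45037 probe sets the median difference was -0.31. With 32 added to every signal before the logarithm, the members' medians became 2.18 and -1.85. The size of a difference from a very dim group therefore depends on how dim signals are treated. All 22 genes with several listed probe sets had them on 1 side. Only probe sets that reached the authors' 4-fold limit are listed, so others of the same genes could not be seen.

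Both tyrosine kinases were higher in MSC-1 cells. Tyro3 is a receptor of the family that also holds Axl and Mertk, which lets mouse Sertoli cells clear dying germ cells. Its signal was 38.6, 64.97 and 58.3 in primary Sertoli cells, against 303, 174 and 261 in MSC-1 cells, a log2 difference of -2.45 ± 0.28. Ptk2b, a focal adhesion kinase that responds to calcium, stood at 51.9, 28.7 and 29.1 in primary Sertoli cells, against 130.3, 139 and 139 in MSC-1 cells, a log2 difference of -2.21 ± 0.25. Within MSC-1 cells the Ptk2b signals lay close together, while those of Tyro3 spread further, with sample 2 lowest. Neither of the Tyro3 ligand genes Gas6 and Pros1 is listed under its own symbol, and both are not analysed here.

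Receptor tyrosine kinases whose titles lack the word kinase were taken from a list of 58 such genes, of which 6 are in the table, Tyro3 included. They went both ways, 3 to 3. Egfr, the epidermal growth factor receptor, had signals of 234, 121 and 97.8 in primary Sertoli cells, against 0.970, 10.3 and 6.59 in MSC-1 cells, a log2 difference of 4.86 ± 0.76. Pdgfra, a receptor for platelet-derived growth factor found on mesenchymal cells, stood at 1992, 986 and 729.9 in primary Sertoli cells, against 71.8, 104 and 68.3 in MSC-1 cells, with a log2 difference of 3.56 ± 0.32. In both, primary sample 1 was the highest of its group, as it was for Ddr2, a collagen receptor with a log2 difference of 2.75 ± 0.36. Erbb3, a neuregulin receptor of Schwann cells, was on the other side, at 229, 40.3 and 66.2 in primary Sertoli cells, against 857, 915 and 779 in MSC-1 cells. For Erbb3 too, primary sample 1 was the highest primary sample, though below every MSC-1 sample. Epha7, an ephrin receptor, differed by -5.82 ± 0.40 on the log2 scale.

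The ligand genes of such receptors had 8 of 64 in the table, 5 of them higher in primary cells and 3 in the line. Ereg, the gene of the Egfr ligand epiregulin, had signals of 899, 993 and 747 in primary Sertoli cells, against 9.72, 5.62 and 8.57 in MSC-1 cells, a log2 difference of 6.55 ± 0.26. Areg, which encodes another Egfr ligand, differed by 5.62 ± 0.65 and Pdgfc, a Pdgfra ligand gene, by 5.99 ± 0.94, both from MSC-1 signals under 6. So Egfr and Pdgfra and 3 genes of their ligands were higher in the same group, that of primary cells. These are bulk samples, so this does not place a receptor and its ligand in the same cell type. In MSC-1 cells the vascular growth factor genes Vegfc (-4.09 ± 0.23) and Vegfb (-2.86 ± 0.22) and the neurotrophic factor gene Gdnf (-2.61 ± 0.29) were higher, each value being a log2 difference with its SE.

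The MAP kinase cascade members lay on both sides, 3 on that of primary cells and 2 on that of the line, and 4 of the 5 belong to the branch that ends in the JNK kinases. Mapk10 encodes JNK3, the JNK of brain, heart and testis. Its signal was 181, 219.6 and 260.1 in primary Sertoli cells, against 4.91, 9.80 and 5.99 in MSC-1 cells, a log2 difference of 4.78 ± 0.32. Its other listed probe set (suffix x_at, for probes that may match other transcripts) had 245, 421 and 458 in primary Sertoli cells, against 3.83, 0.256 and 0.188 in MSC-1 cells, a log2 difference of 9.05 ± 1.02, which was the largest of all 93 probe sets. The scaffold gene Mapk8ip2 (JIP2), whose product holds JNK with its activators, had 235, 293 and 392 in primary Sertoli cells, against 2.95, 24.2 and 8.69 in MSC-1 cells, a log2 difference of 4.88 ± 0.61. The other Mapk8ip2 probe set differed by 7.30 ± 0.66, and the difference of the first was 4.14 without MSC-1 sample 1 and 5.62 without MSC-1 sample 2. Primary sample 1 was lowest for both genes. The related scaffold gene Mapk8ip1 (JIP1) was on the opposite side, at 34.5, 20.2 and 32.3 in primary Sertoli cells, against 199, 236 and 190.3 in MSC-1 cells, with a log2 difference of -3.14 ± 0.23. Map4k2, an upstream kinase that leads to JNK, followed Mapk8ip1, at 26.1, 19.6 and 22.4 in primary Sertoli cells, against 178, 116 and 157 in MSC-1 cells and a log2 difference of -2.97 ± 0.24. One scaffold of the pair was thus higher in each kind of cell.

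The other member was Rps6ka6, which encodes RSK4, a kinase of the family that ERK activates. It had 69.7, 78.6 and 47.4 in primary Sertoli cells, against 1.59, 0.954 and 4.72 in MSC-1 cells, a log2 difference of 4.79 ± 0.64 (5.41 without MSC-1 sample 3), and was the dimmest of the 29 members on its side. From a list of 67 genes of the cascade, 3 are in the table, Mapk10, Rps6ka6 and Map4k2, all of them members. Of 22 phosphatases and feedback inhibitors of the cascade, the table holds Errfi1, an inhibitor of Egfr, with a log2 difference of 2.53 ± 0.14, and Dusp7, a phosphatase of ERK, with -2.67 ± 0.20. Of 20 immediate early target genes, Egr2 (2.63 ± 0.25) and Etv1 (3.54 ± 0.41) are listed, both higher in primary cells on the log2 scale.

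The member genes of the protein kinase A system were divided between the groups, by subunit and anchor. The enzyme consists of catalytic subunits held inactive by regulatory subunits, which cAMP releases, and A-kinase anchor proteins tie the regulatory subunits to places in the cell. Prkar1b, the type I beta regulatory subunit, had signals of 119, 54.6 and 62.1 in primary Sertoli cells, against 8.15, 15.2 and 10.9 in MSC-1 cells, a log2 difference of 2.49 ± 0.38. The only listed probe set of Prkar1b has the suffix x_at, so its probes may match other transcripts. Prkar2b, the type II beta subunit, had 237, 209 and 188 in primary Sertoli cells, against 981, 926 and 1056 in MSC-1 cells, a log2 difference of -2.49 ± 0.13. Its 3 listed probe sets ranged from -2.31 to -2.79. The type II alpha subunit gene Prkar2a averaged 25.3 ± 11.5 in primary Sertoli cells, beside 98.2 ± 0.368 in the MSC-1 line (SD, n = 3 each), a log2 difference of -2.31 ± 0.30. Primary cells therefore had the higher signal for the type I beta subunit gene, by that x_at probe set. The line had the higher signal for both type II subunit genes. No other subunit gene of this enzyme is among the members, and protein was not measured. Pkia, whose product inhibits the catalytic subunit, was higher in MSC-1 cells as well, at 43.9, 25.2 and 21.4 in primary Sertoli cells, against 229, 85.7 and 161 in MSC-1 cells, with a log2 difference of -2.61 ± 0.39. Its MSC-1 samples spread widely, with sample 2 lowest.

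Among the anchors, Akap12 (gravin), a scaffold for protein kinases A and C, had 1165, 1094 and 938 in primary Sertoli cells, against 13.7, 17.02 and 17.8 in MSC-1 cells. This was a log2 difference of 5.79 ± 0.17, with a fold of 45.0 in the authors' deposited table. Akap3 and Akap4 encode anchors of the fibrous sheath of the sperm tail. Akap3 stood at 329, 178 and 325 in primary Sertoli cells, against 5.98, 5.76 and 0.396 in MSC-1 cells, a log2 difference of 6.55 ± 0.92. Its only listed probe set also has the suffix x_at and may match other transcripts. MSC-1 sample 3 was nearly dark: the difference was 5.23 without it, 7.24 without MSC-1 sample 1 and 7.17 without MSC-1 sample 2. Akap4 had 94.9, 92.3 and 117 in primary Sertoli cells, against 11.97, 14.5 and 6.34 in MSC-1 cells, a log2 difference of 3.03 ± 0.36, and its other probe set differed by 6.13. Akap6, an anchor of the nuclear envelope in muscle and nerve cells, was instead higher in MSC-1 cells, with 9.27, 10.02 and 18.8 in primary Sertoli cells, against 71.9, 178 and 73.6 in MSC-1 cells and a log2 difference of -3.28 ± 0.42. From a list of 19 anchors and inhibitors, 6 are in the table, 3 on each side. The sixth is no member: the file calls it Palm2, which RefSeq holds under Pakap, and it was higher in MSC-1 cells (-3.06 ± 0.45 on the log2 scale). Whether its probe set measures an anchor was not tested.

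**Figure D2:**
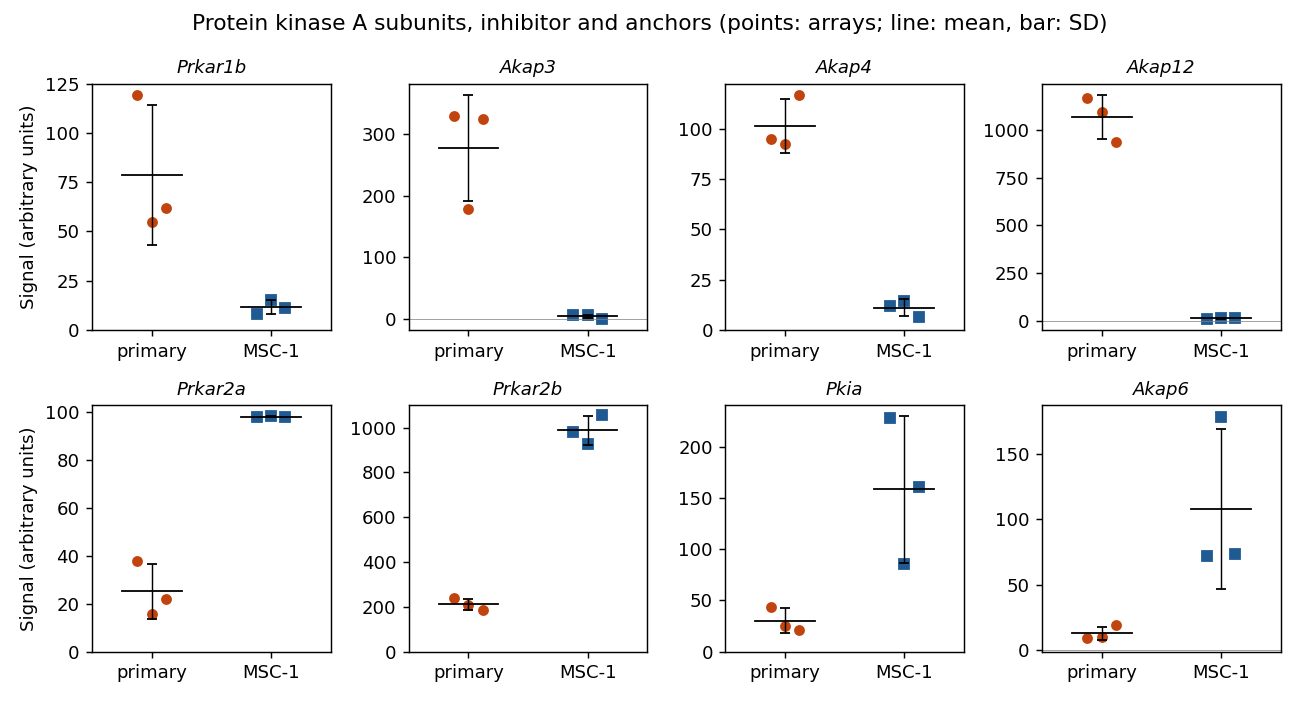
Signals of 8 genes of the protein kinase A system on a linear axis, circles for the 3 primary Sertoli cell arrays at the left of each panel and squares for the 3 MSC-1 arrays at the right, with the mean (line) and SD (bar). The top row holds Prkar1b and the anchors Akap3, Akap4 and Akap12, higher in primary cells, and the bottom row Prkar2a, Prkar2b, the inhibitor Pkia and the anchor Akap6, higher in MSC-1 cells.

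Of the remaining calcium or lipid messenger kinases, 1 had its higher level in primary cells and 6 in the line. Prkcb, a protein kinase C that calcium and diacylglycerol activate, had 149, 103 and 84.2 in primary Sertoli cells, against 13.9, 0.736 and 0.958 in MSC-1 cells, a log2 difference of 5.41 ± 0.99. Its MSC-1 signals were uneven, with sample 1 well above the other two. Without MSC-1 sample 1, 2 or 3 the difference was 6.79, 4.63 or 4.81, and the other probe set gave 3.94. Prkcq, the protein kinase C known from T cell activation, had 40.6, 2.54 and 20.6 in primary Sertoli cells, against 135, 129.8 and 118 in MSC-1 cells, a log2 difference of -3.57 ± 0.79. Here the primary samples were uneven and sample 2 was nearly dark; the difference was -4.37 without primary sample 1 and -2.44 without primary sample 2. Prkd1, which acts downstream of protein kinase C, averaged 104 ± 5.83 in primary Sertoli cells, beside 406 ± 43.3 in the MSC-1 line (SD, n = 3 each), with a log2 difference of -2.21 ± 0.15.

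Dclk1, a microtubule-binding kinase of developing neurons, was strongly higher in MSC-1 cells. Its signal was 38.4, 65.2 and 38.3 in primary Sertoli cells, against 795, 940.3 and 805 in MSC-1 cells, a log2 difference of -4.46 ± 0.24. All 5 of its listed probe sets lay on that side, between -3.64 and -4.82. Eef2k, the calmodulin-dependent kinase that slows the elongation step of protein synthesis, stood at 20.8, 22.1 and 21.4 in primary Sertoli cells, against 192, 118 and 159 in MSC-1 cells, a log2 difference of -3.10 ± 0.25. Phka1, a regulatory subunit of phosphorylase kinase, which starts glycogen breakdown, had 40.4, 42.7 and 33.1 in primary Sertoli cells, against 201, 203 and 184 in MSC-1 cells, a log2 difference of -2.61 ± 0.19. The calmodulin-dependent kinase gene Camk1 averaged 58.9 ± 25.4 in primary Sertoli cells, beside 228 ± 17.6 in the MSC-1 line (SD, n = 3 each), a log2 difference of -2.30 ± 0.28. From a list of 48 kinases of this class, 10 are in the table, 4 higher in primary cells and 6 in the line. The list counts Prkag2, placed here among the other serine/threonine kinases, and lacks Phka1 and Eef2k. Of the 10, 1 is no member. This is Phkg2, which encodes a catalytic subunit of phosphorylase kinase. Its signal was 1314, 1704 and 2241 in primary Sertoli cells, against 127, 112 and 125 in MSC-1 cells, a log2 difference of 3.56 ± 0.19. Phka1 and Phkg2 thus lay on opposite sides, and whether their products share an enzyme was not tested.

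The metabolic members comprised 4 enzymes known from cilia, sperm tails or testis, higher in primary cells, and 5 enzymes of nucleotide salvage or of mitochondria, higher in the line. Tk1, thymidine kinase, and Dck, deoxycytidine kinase, make DNA precursors from salvaged nucleosides. Tk1 had 61.8, 38.3 and 37.1 in primary Sertoli cells, against 559, 665 and 562 in MSC-1 cells, a log2 difference of -4.00 ± 0.20. Dck stood at 139.7, 100.03 and 91.4 in primary Sertoli cells, against 657, 732 and 727 in MSC-1 cells, a log2 difference of -2.96 ± 0.16, and its 3 probe sets ranged from -2.96 to -3.51. The groups were far apart for both. Cmpk2, a mitochondrial nucleotide kinase that interferon induces, had 66.4, 70.3 and 99.1 in primary Sertoli cells, against 438, 208 and 286 in MSC-1 cells, a log2 difference of -2.20 ± 0.28. Pdk1, which shuts pyruvate dehydrogenase down, had 7.23, 16.6 and 30.1 in primary Sertoli cells, against 118, 52.5 and 107 in MSC-1 cells, a log2 difference of -2.77 ± 0.53. Pck2, the mitochondrial enzyme that makes phosphoenolpyruvate, had 32.6, 11.8 and 20.6 in primary Sertoli cells, against 99.4, 88.8 and 79.1 in MSC-1 cells, a log2 difference of -2.41 ± 0.35. The primary signals of Pdk1 and Pck2 were low and scattered.

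On the primary side, Nme5, a nucleoside diphosphate kinase family member of cilia and sperm tails, had 434, 549 and 602 in primary Sertoli cells, against 14.8, 9.30 and 16.9 in MSC-1 cells, a log2 difference of 5.05 ± 0.26. Ak7, an adenylate kinase of motile cilia, stood at 264, 403 and 409 in primary Sertoli cells, against 14.8, 11.4 and 7.16 in MSC-1 cells, a log2 difference of 4.79 ± 0.33. Lrguk, whose guanylate kinase domain protein shapes sperm in mice, had 85.9, 102 and 106 in primary Sertoli cells, against 4.11, 5.94 and 0.645 in MSC-1 cells, a log2 difference of 5.02 ± 0.76, or 5.64 without MSC-1 sample 2 and 4.03 without MSC-1 sample 3. Primary sample 1 was lowest for all 3. Pfkfb4, the testis form of the enzyme that sets the level of fructose 2,6-bisphosphate, was less far apart, at 209.5, 234 and 231 in primary Sertoli cells, against 52.6, 56.2 and 44.6 in MSC-1 cells, a log2 difference of 1.88 ± 0.18. A list of 86 metabolic kinases had 9 genes in the table, 4 of them higher in primary cells and 5 in the line. The listed gene that is no member, the adenylate kinase gene Ak8, differed by 7.47 ± 1.04 on the log2 scale.

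Of the other serine/threonine kinases, 15 had the higher level in primary cells and 8 in the line. The primary share of 65.2% was near the 62.4% of the other 2231 genes of the table. Mak, the male germ cell-associated kinase, had signals of 378, 400.1 and 393 in primary Sertoli cells, against 0.800, 6.26 and 2.11 in MSC-1 cells, a log2 difference of 7.21 ± 0.61. Its difference was 6.52 without MSC-1 sample 1 and 7.96 without MSC-1 sample 2, and its other probe set gave 6.54. Mok is a relative of Mak, and Cdk20 (Ccrk in the file) is known to activate kinases of that family in cilia. Mok (Stk30 in the file) averaged 498 ± 66.7 in primary Sertoli cells, beside 57.2 ± 4.01 in the MSC-1 line (SD, n = 3 each), and Cdk20 averaged 200.1 ± 34.1 in primary Sertoli cells, beside 21.5 ± 9.996 in the MSC-1 line (SD, n = 3 each). Their log2 differences were 2.86 ± 0.17 and 3.04 ± 0.34. Ulk4 and Stk36, both known from motile cilia, differed by 3.12 ± 0.27 and 1.75 ± 0.23. These 5 genes of cilia and germ cells were all on the primary side.

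Grk4 and Grk3 (Adrbk2 in the file) encode kinases that switch off activated G protein-coupled receptors. Grk4 had 334, 416 and 484 in primary Sertoli cells, against 7.42, 14.4 and 10.5 in MSC-1 cells, a log2 difference of 5.03 ± 0.27. Grk3 averaged 158 ± 40.7 in primary Sertoli cells, beside 14.4 ± 17.8 in the MSC-1 line (SD, n = 3 each), a log2 difference of 3.95 ± 0.74, with MSC-1 sample 2 well above the other two. The difference was 4.97 without MSC-1 sample 2 and 3.28 without MSC-1 sample 3, and the other probe set gave 5.04. Both receptor kinases were higher in primary cells.

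Kinases of innate immune and death signalling were also on the primary side. Irak3, which restrains Toll-like receptor signalling, had 374, 438 and 439 in primary Sertoli cells, against 1.72, 6.02 and 3.16 in MSC-1 cells, a log2 difference of 6.76 ± 0.41, and 5.58 by its other probe set. Ripk3, the kinase that drives necroptosis, averaged 138 ± 16.9 in primary Sertoli cells, beside 3.98 ± 1.81 in the MSC-1 line (SD, n = 3 each), a log2 difference of 4.96 ± 0.42. Its relative Ripk4, known from skin, had 209.9, 43.6 and 63.2 in primary Sertoli cells, against 0.610, 5.47 and 3.32 in MSC-1 cells, a log2 difference of 4.97 ± 0.84. For Ripk4 primary sample 1 was several times the others, yet all 3 primary samples lay above every MSC-1 sample. The difference was 4.33 without primary sample 1, 4.06 without MSC-1 sample 1 and 5.60 without MSC-1 sample 2. It thus depended on the dim MSC-1 arrays as well as on primary sample 1. Ikbkg (NEMO), the regulatory subunit of the kinase that activates NF-kappaB, was the member of this kind on the other side. It averaged 86.3 ± 12.4 in primary Sertoli cells, beside 366 ± 22.4 in the MSC-1 line (SD, n = 3 each), a log2 difference of -2.35 ± 0.15.

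Kinases of ion transport and energy followed. Wnk3 and Stk39 (SPAK) work in 1 pathway that sets chloride transport. Wnk3 had 42.7, 158 and 163 in primary Sertoli cells, against 0.640, 3.84 and 3.20 in MSC-1 cells, a log2 difference of 5.44 ± 0.78, with primary sample 1 far below the other two. The difference was 6.10 without primary sample 1 and 4.65 without MSC-1 sample 1. Stk39 averaged 899.9 ± 199 in primary Sertoli cells, beside 133 ± 21.00 in the MSC-1 line (SD, n = 3 each), a log2 difference of 2.48 ± 0.20. Prkag2, the gamma 2 subunit that lets AMP-activated kinase sense the cell's energy state, averaged 639 ± 78.1 in primary Sertoli cells, beside 76.5 ± 4.73 in the MSC-1 line (SD, n = 3 each), a log2 difference of 2.80 ± 0.15. Strada, an adaptor of the kinase LKB1 that acts upstream of it, had 316, 502 and 555 in primary Sertoli cells, against 68.1, 76.5 and 61.04 in MSC-1 cells, a log2 difference of 2.45 ± 0.23. All of these were higher in primary cells. So were Dyrk3 (3.64 ± 0.23), which dissolves condensates during mitosis, and Smg1 (1.97 ± 0.22), a kinase of nonsense-mediated decay, each value a log2 difference. Gkap1, an anchor of cGMP-dependent kinase found in germ cells, was the brightest member, at 3449, 4254 and 4336 in primary Sertoli cells, against 437, 374 and 342 in MSC-1 cells, a log2 difference of 3.12 ± 0.16.

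Among the genes higher in MSC-1 cells were several known from the cell cycle, while Dyrk3 and Cdk20 (cell cycle related kinase by its older name) were on the primary side and titles with cyclin or aurora are outside the rule. Chek1, which halts the cycle when DNA is damaged, averaged 84.02 ± 16.8 in primary Sertoli cells, beside 306 ± 31.8 in the MSC-1 line (SD, n = 3 each), a log2 difference of -2.14 ± 0.20. Mastl, the Greatwall kinase that holds a phosphatase in check during mitosis, averaged 43.4 ± 5.54 in primary Sertoli cells, beside 246 ± 11.04 in the MSC-1 line (SD, n = 3 each), a log2 difference of -2.77 ± 0.17, and -3.43 by the probe set furthest from it. Melk, a kinase abundant in dividing cells, had 44.4, 67.2 and 45.9 in primary Sertoli cells, against 439, 349 and 371 in MSC-1 cells, a log2 difference of -3.16 ± 0.22. Skp2, the subunit of a ubiquitin ligase that marks the cell cycle inhibitor p27 for destruction, had 81.3, 84.4 and 71.01 in primary Sertoli cells, against 496, 549.6 and 544 in MSC-1 cells, a log2 difference of -3.01 ± 0.14, and 6 listed probe sets between -2.76 and -3.63. Its cofactor Cks1b, which binds cyclin-dependent kinases, stood at 221, 175 and 134 in primary Sertoli cells, against 874, 837 and 807 in MSC-1 cells, a log2 difference of -2.54 ± 0.18. Cdk14 (Pftk1 in the file) averaged 110.3 ± 60.9 in primary Sertoli cells, beside 432 ± 58.5 in the MSC-1 line (SD, n = 3 each), a log2 difference of -2.35 ± 0.30, with primary sample 1 above the other two and -3.25 by its other probe set.

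The remaining genes of the MSC-1 side have various roles. Srpk2 and Srpk3 phosphorylate splicing factors rich in serine and arginine. Srpk2 had 22.3, 60.2 and 68.7 in primary Sertoli cells, against 275, 365 and 341 in MSC-1 cells, a log2 difference of -3.10 ± 0.38. Srpk3 had 6.999, 12.3 and 15.2 in primary Sertoli cells, against 54.7, 106 and 84.01 in MSC-1 cells, a log2 difference of -3.10 ± 0.39, and a second probe set, with mean signals of 3.72 in primary cells and 208 in the line, that differed by -6.37. That was the largest difference on the MSC-1 side among the 93 probe sets. Limk1, which regulates actin through cofilin, had 31.5, 28.5 and 41.2 in primary Sertoli cells, against 177, 255 and 180.1 in MSC-1 cells, a log2 difference of -2.85 ± 0.22. Lrrk1, a leucine-rich repeat kinase, stood at 54.6, 24.3 and 35.97 in primary Sertoli cells, against 191, 291 and 229.6 in MSC-1 cells, a log2 difference of -2.95 ± 0.27, and Mob3b (Mobkl2b in the file), related to activators of NDR kinases, at 41.3, 35.8 and 29.4 in primary Sertoli cells, against 193, 197 and 188 in MSC-1 cells, a log2 difference of -2.71 ± 0.19. The MSC-1 samples of Mob3b were nearly equal.

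**Figure D3:**
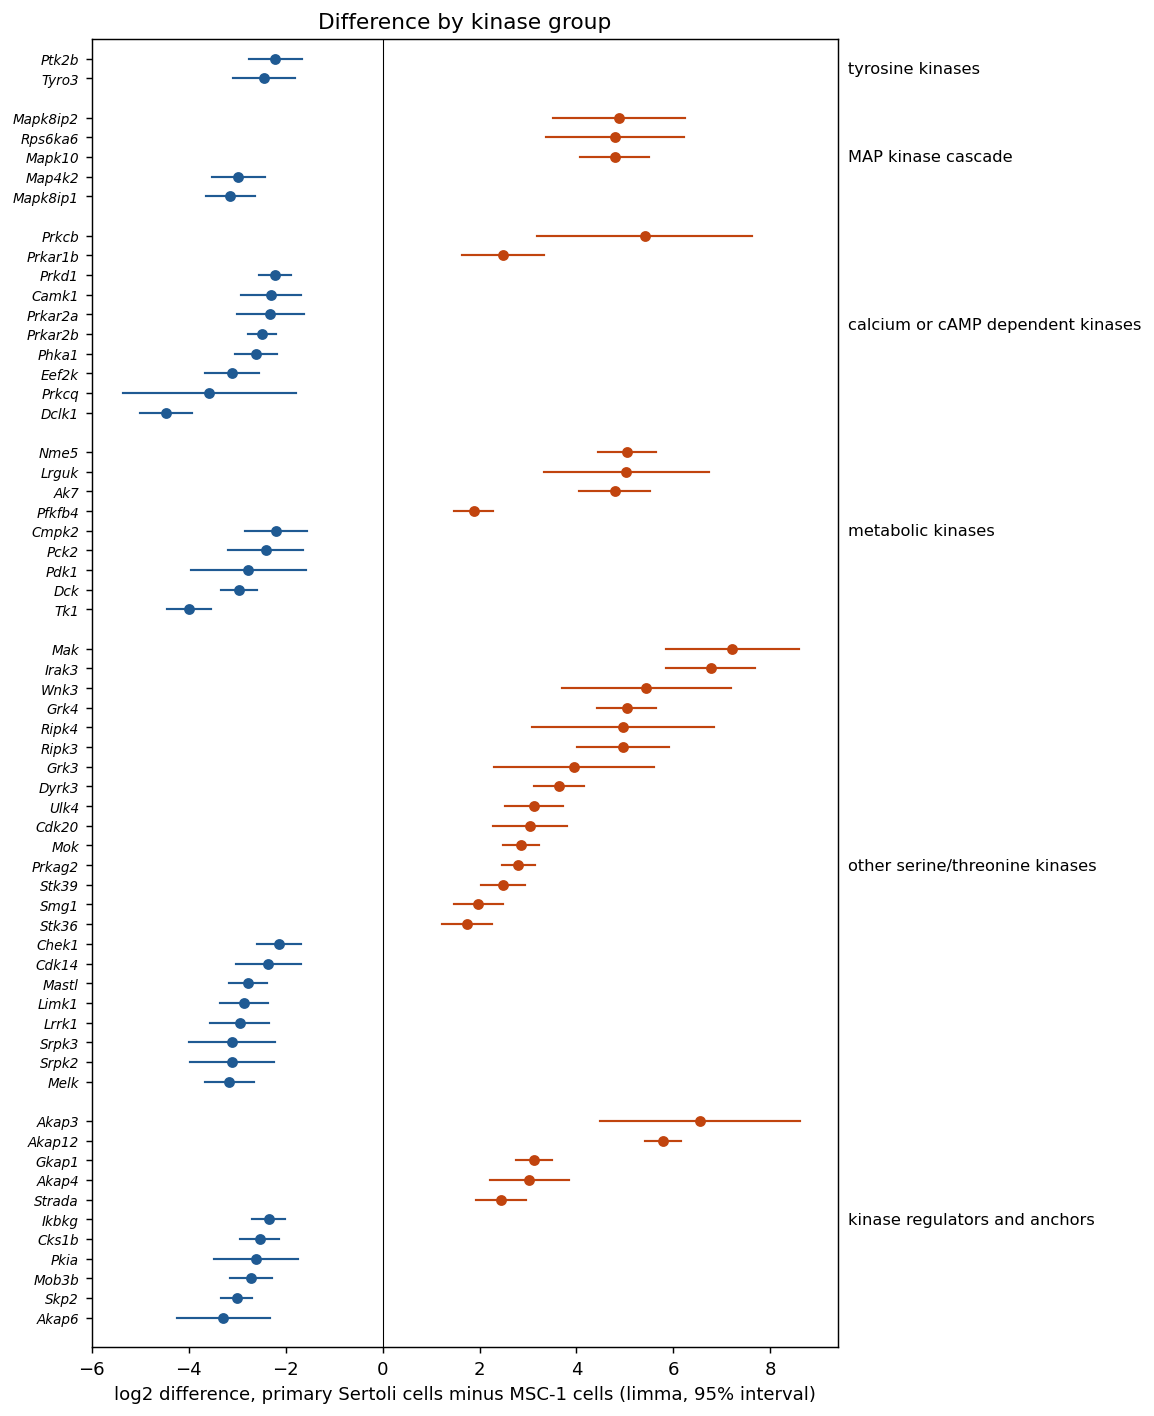
Log2 difference of each gene, primary Sertoli cells minus MSC-1 cells, with its 95% interval from the limma fit, grouped by function; points right of 0 are higher in primary cells and points left of 0 higher in MSC-1 cells. The 2 tyrosine kinases and 8 of 10 calcium or cAMP dependent genes lie on the MSC-1 side, and 15 of 23 other serine/threonine kinases, or 65.2%, lie on the primary side. Of the other 2231 genes of the authors' table, 62.4% lie on the primary side. The fixed list of calcium or cAMP dependent kinases, which holds partly other genes, divides 4 to 6.

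Promoters are shown for members that were high in the same group, from RefSeq on GRCm38.p6, where 52 of the 60 genes have an entry. Both strands of the 250 bases before each start were searched for the CHR (TTTGAA) and the CCAAT box (CCAAT), known from cell cycle genes, an E2F site (TTTCCCGC, TTTCGCGC, TTTGCCGC or TTTGGCGC), the cAMP response element or CRE (TGACGTCA), through which CREB and the germ cell factor CREM act, and the X-box of ciliary genes. Each motif was searched on its own, so matches may overlap, and a gene counted if any of its starts had one. The CHR was present in 0 of 24 genes higher in primary cells and in 8 of 28 higher in MSC-1 cells, or 28.6%, beside 18.3% of all 27025 genes with an entry. The 8 genes were Cks1b, Skp2, Dck, Lrrk1, Map4k2, Pck2, Phka1 and Srpk2, and Chek1, Mastl, Melk, Cdk14 and Tk1 had none in this window. The CCAAT box was in 41.7% and 39.3%, beside 37.5% of all. The CRE was in 2 of 24 genes and 0 of 28, beside 1.77% of all. An E2F site was in 0 of 24 and 1 of 28, that of Eef2k, beside 2.16%. The X-box in the form given was in none of either, beside 0.292%, and looser forms of it were not searched. A match describes letters and is no evidence of binding, and the motifs were chosen with the results known.
Capitals mark the matches on either strand. Cks1b (chr3:89418292-89418541, minus strand) and Skp2 (chr15:9155426-9155675, minus strand, 1 of 2 starts) are shown as examples because their products work as a pair and both windows hold the CHR and CCAAT box, as do those of Map4k2, Pck2 and Srpk2, and Mapk10 (chr5:103211335-103211584, minus strand, 1 of 2 starts) and Lrguk (chr6:34029198-34029447, plus strand) as the members of the primary side with the CRE.
Cks1b: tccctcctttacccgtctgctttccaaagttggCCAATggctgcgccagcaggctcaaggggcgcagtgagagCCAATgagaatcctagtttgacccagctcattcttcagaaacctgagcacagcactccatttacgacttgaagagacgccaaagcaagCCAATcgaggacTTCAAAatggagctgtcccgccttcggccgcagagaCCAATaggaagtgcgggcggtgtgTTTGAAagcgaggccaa
Skp2: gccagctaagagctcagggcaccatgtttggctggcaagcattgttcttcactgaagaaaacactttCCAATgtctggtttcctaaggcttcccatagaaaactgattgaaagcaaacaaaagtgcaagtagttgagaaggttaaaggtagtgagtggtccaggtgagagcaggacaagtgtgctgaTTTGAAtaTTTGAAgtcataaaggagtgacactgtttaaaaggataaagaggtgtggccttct
Mapk10: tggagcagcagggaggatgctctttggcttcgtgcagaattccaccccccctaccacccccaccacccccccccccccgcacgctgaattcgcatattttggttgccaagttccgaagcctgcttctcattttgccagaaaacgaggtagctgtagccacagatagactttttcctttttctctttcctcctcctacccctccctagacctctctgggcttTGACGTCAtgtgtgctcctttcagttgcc
Lrguk: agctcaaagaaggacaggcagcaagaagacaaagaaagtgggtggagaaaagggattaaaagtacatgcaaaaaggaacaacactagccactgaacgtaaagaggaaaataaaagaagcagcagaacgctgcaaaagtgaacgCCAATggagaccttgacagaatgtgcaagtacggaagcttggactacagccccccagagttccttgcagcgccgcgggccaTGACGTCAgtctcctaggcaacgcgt
In Mapk10 and Lrguk the CRE begins at -29 and -26 from the start, and in Cks1b a CHR begins at -17. The signals of these 4 genes are those given above.

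Markers of other cell types moved with the members, and their part in the results was not tested. In bulk samples, fewer cells of a type and less RNA per cell cannot be told apart. Of 22 germ cell markers, 11 are in the table, all higher in primary cells, where their summed signal was 5906 to 8125, against 82.2 to 106.7 in MSC-1 cells. The spermatocyte genes Sycp1 and Piwil1 had MSC-1 signals no higher than 6.15 and 2.31. Listed peritubular markers, 5 of 8, summed to 1752 to 3379 in primary cells and 116 to 148 in MSC-1 cells, and macrophage markers, 2 of 12, to 239 to 326 and 34.4 to 73.6. For Leydig cells, 1 of 8 markers is listed, Star, at 480.4, 574 and 459 in primary Sertoli cells, against 17.3, 17.9 and 21.8 in MSC-1 cells, and none of 8 endothelial ones is. Schwann cell and melanocyte markers, 7 of 10, were all on the MSC-1 side, summing to 103 to 135 in primary cells and 6500 to 9799 in MSC-1 cells. Of 19 Sertoli cell markers, 8 are listed and 7 were higher in primary cells. Sox9, which fixes Sertoli cell fate, had 131, 204 and 244 in primary Sertoli cells, against 36.4, 39.7 and 28.1 in MSC-1 cells, while the transferrin gene Trf had 376, 554 and 369.8 in primary Sertoli cells, against 4508, 3503 and 4337 in MSC-1 cells. Among markers in the table, the line thus had lower levels of most Sertoli cell ones and higher levels of the Schwann cell and melanocyte ones. The other Sertoli cell markers could not be seen, and 62.1% of all genes of the table were higher in primary cells. What this means for the identity of the line was not tested.

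Within the primary group, sample 1 stood apart. It was the lowest of the 3 primary samples, after centring, for 22 of the 29 genes higher in primary cells, or 75.9%, beside 60.9% of all 6765 probe sets called higher there. Of the 11 listed germ cell markers it was lowest for 10. Its log2 level relative to the mean of samples 2 and 3 had a median of -0.36 for the 29 genes, -0.33 for germ cell markers, -0.33 for Sertoli cell markers and 0.92 for peritubular markers. Among the members, Wnk3 at -1.99, Strada at -0.82, Grk3 at -0.76 and Ak7 at -0.70 were furthest below on this scale. Ripk4 at 1.92, Prkar1b at 0.95 and Prkcb at 0.60 were highest in sample 1, as were the peritubular genes Acta2 at 0.92 and Nr2f2 at 1.21. This pattern lies within 1 group and is a description of 3 arrays.

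**Figure D4:**
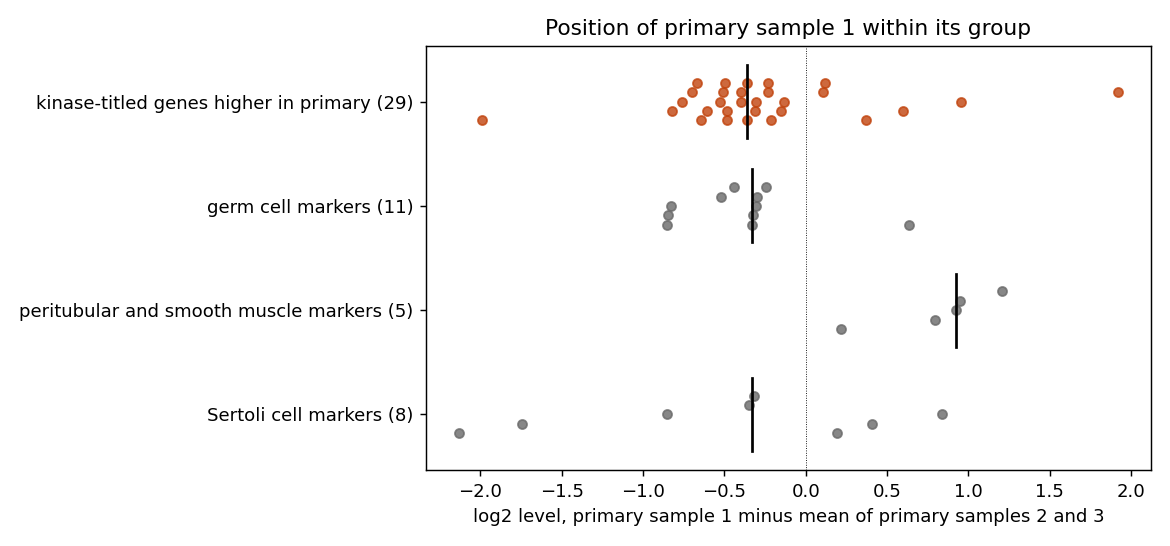
Log2 level of primary sample 1 minus the mean of primary samples 2 and 3, after centring, for the 29 kinase-titled genes higher in primary cells and for listed germ cell, peritubular and Sertoli cell markers; each point is a gene and the bar is the median. The medians are -0.36 for the 29 genes, -0.33 for germ cell markers, -0.33 for Sertoli cell markers and 0.92 for peritubular markers.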

How the data were processed

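Total RNA, 10 ug per sample, from 3 primary Sertoli cell and 3 MSC-1 samples was labelled with biotin for Affymetrix arrays, per the labels' protocols. The intensity values are the authors' deposited linear signals; GCOS is named in the submitters' processing notes, and background and summary steps are not given in the sources used here. How the signed folds of the authors' deposited table were computed is not given either: the ratio of mean signals was a median 1.16 times the table's fold over the 93 member probe sets. Of 7112 probe sets past 4-fold in mean signal, 2964 are in that table.

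After 64 control probe sets were left out, signals were put on the log2 scale with no pseudocount and each array was centred on its median, since medians differed by 0.37, over the 0.3 set for this. limma 3.58.1 (R 4.3.3) with an intensity trend was fitted over 45037 probe sets and tested on simulated data, with Benjamini-Hochberg adjustment and a threshold of 0.05. Of 62 member symbols, 55 were current in RefSeq, 2 differed in letter case and 5 were synonyms, giving 60 genes. No annotation of the array was used, so genes outside the authors' table have no name here, and the 11 fixed kinase lists could be read only for their 47 genes in it.

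The members and lists were chosen with earlier results of these data known. Signals by array are printed for up to 5 members with the largest differences per side and group, and for up to 3 genes per side of each list outside them; cell type markers named singly were chosen after their values were seen. The arrays' number limits the precision, and no detection call is used here. Tables and plots were made in Python 3.11.15 with pandas 2.3.3 and matplotlib 3.10.9. Alternatives left out each replicate, used the replicate number as a block, quantile normalization, a pseudocount of 32, no probe sets among the 40% dimmest, no trend, other probe sets, an 8-fold limit and, added after the data were seen, no centring.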

Additional observations from a re-analysis of the deposited data

How the results depend on the processing

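All 60 genes kept their direction and stayed past the threshold in each of 13 alternatives that gave a value, apart from Rps6ka6 and Ripk4, which the filter on dim probe sets left out; their selection at 4-fold on these same arrays all but fixed this, so it is no sign of stability. With a limit of 8-fold added, the genes higher in MSC-1 cells fell to 10, and those higher in primary cells to 21, by construction. Over the whole array, 19028 probe sets were called, between 16082 and 19314 with 1 replicate left out, 18036 after quantile normalization and 17958 without centring. Same-numbered samples did not deviate together (correlations of -0.02, -0.06 and 0.03). With 3 arrays per group, this shows no pairing by number but cannot exclude it. With the replicate block, 17824 probe sets were called, and 29 and 31 members, as without it. Of the listed kinase pathway genes, 24 were called higher in primary and 23 in MSC-1 cells with the block and without it. The size of the differences on the primary side depends on how dim MSC-1 signals are treated. Their median was 4.78 with no pseudocount and 2.18 with a pseudocount of 32.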
